A study of Mus musculus with 14 samples.

Results

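The miR-181 family was examined in exosomes, small vesicles that carry RNA between cells, released by adipose tissue macrophages (ATMs). The family was taken as the 6 rows of the authors' deposited table named mmu-mir-181a-1, mmu-mir-181a-2, mmu-mir-181b-1, mmu-mir-181b-2, mmu-mir-181c and mmu-mir-181d, out of 539 microRNA (miRNA) hairpins. The family was chosen on the fold changes and adjusted p-values of this same comparison, so those values are given as a description and support nothing further. The labels give 7 libraries from obese and 7 from lean C57BL/6 mice. In both groups CD11b+F4/80+ macrophages of adipose tissue were kept for 72 h in medium with 10% exosome-free serum before ultracentrifugation. The way the mice were made obese, the fat depot and any pooling of animals were not given in the sources used here. Age labels start at 24 weeks and end between 26 and 32 weeks in obese mice and between 33 and 39 weeks in lean mice. They step up by 1 week per library in order of listing, so that if they hold, age and obesity cannot be told apart.

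A miRNA gene is transcribed as a long precursor that is cut to a hairpin and then to mature strands of the 5p and 3p arms. The mature strand guides silencing proteins to messenger RNAs, mainly through its seed, bases 2 to 8. The miR-181 family is known for tuning antigen receptor signalling and the development of T, B and natural killer cells, and its members are also expressed in myeloid cells and endothelium, where they have been tied to the control of inflammatory signalling.

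The mature sequences are shown first because each row of the table is a hairpin and the hairpins share mature strands. All 6 hairpins were matched to RefSeq (GRCm38.p6), and the 12 annotated mature arms collapse to 4 sequences on the 5p side. The 5p strands are printed 5′ to 3′ with the seed in capitals.
mmu-miR-181a-5p (from mir-181a-1 and mir-181a-2): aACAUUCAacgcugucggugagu
mmu-miR-181b-5p (from mir-181b-1 and mir-181b-2): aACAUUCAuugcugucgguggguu
mmu-miR-181c-5p: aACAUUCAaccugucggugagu
mmu-miR-181d-5p: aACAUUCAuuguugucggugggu
All 4 carry the seed ACAUUCA, and no other of the 1679 mature miRNAs in the RefSeq table carries it. With positions counted from 1 at the 5′ end, miR-181a-5p and miR-181b-5p differ by A9U, C10U and A21G and by a last base that only miR-181b-5p has. The strand of miR-181c-5p is that of miR-181a-5p without the G at position 11. The strand of miR-181d-5p differs from miR-181b-5p by C12U and lacks its last base. By sequence the family therefore forms an a-like pair, a and c, and a b-like pair, b and d.

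The 3p strands are shown because they are where the copies of one miRNA can be told apart. Capitals here mark the bases that differ between the copies.
mmu-miR-181a-1-3p: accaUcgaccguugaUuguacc
mmu-miR-181a-2-3p: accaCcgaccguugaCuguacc
mmu-miR-181b-1-3p: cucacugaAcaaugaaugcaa
mmu-miR-181b-2-3p: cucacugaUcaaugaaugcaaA
The copies of miR-181a differ on the 3p side by U5C and U16C, the first of which lies in the seed. Those of miR-181b differ by A9U and a last base, and both have the 3p seed UCACUGA. The 3p strand of mir-181c has the same seed as that of mir-181a-1, CCAUCGA, and differs from it by U16G and U19G. None of the 3p seeds occurs in a mature miRNA outside the family in the RefSeq table.

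The hairpins of the miR-181a copies are printed with both mature strands in capitals, to show how much of each precursor lies outside them.
mmu-mir-181a-1: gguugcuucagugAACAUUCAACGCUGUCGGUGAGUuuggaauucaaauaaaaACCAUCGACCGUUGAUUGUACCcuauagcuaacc
mmu-mir-181a-2: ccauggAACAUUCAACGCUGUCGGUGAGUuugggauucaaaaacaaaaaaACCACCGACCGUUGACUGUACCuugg
These hairpins are 87 and 76 bases long, of which 42 and 31 lie outside the mature strands. They are 26 edits apart (substitutions, insertions or deletions), although their 5p strands are identical. The miR-181b hairpins, of 80 and 89 bases, are 25 edits apart.

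The 6 hairpins lie in 3 clusters, each of which pairs an a-like with a b-like hairpin. Positions are those of GENCODE M21 on GRCm38, since the authors' build was not given in the sources used here. On chromosome 1, mir-181a-1 (ENSMUSG00000065565.1) at chr1:137966455-137966541 and mir-181b-1 (ENSMUSG00000065458.1) at chr1:137966639-137966718 lie 97 bases apart on the plus strand. Both are in an intron of the noncoding gene Gm4258 on the same strand. The noncoding RNA A430106G13Rik covers all 80 bases of mir-181b-1 with an exon, but only the last 11 bases of mir-181a-1. The hairpins mir-181a-2 (ENSMUSG00000065423.1) at chr2:38852735-38852810 and mir-181b-2 (ENSMUSG00000065578.1) at chr2:38853830-38853918 are 1019 bases apart on the plus strand, opposite an intron of Nr6a1, which encodes an orphan nuclear receptor. An exon of the unclassified transcript Gm44144 runs opposite mir-181b-2. The hairpins mir-181c (ENSMUSG00000065483.2) at chr8:84178873-84178961 and mir-181d (ENSMUSG00000076338.1) at chr8:84178716-84178787 are 85 bases apart on the minus strand, within an intron of Nanos3, a germ cell RNA-binding protein gene.

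In the authors' deposited table all 6 hairpins had positive log2 fold changes, and the 4 rows for miR-181a and miR-181b had an adjusted p under 0.05 in limma, called here. Over all 539 hairpins, 5.57% were called in either direction and 2.04% on the positive side. The median log2 fold change was 2.58 over the 6 hairpins and 0.09 over all 539 in the authors' deposited table. Since these values chose the family, nothing is read from the contrast. No header or label states whether fold changes are obese over lean or the reverse. A published report on ATM exosomes, not among the sources used here, described more miR-155 in those of obese mice. Whether it rests on these same libraries was not checked, so it is not taken as independent. Here mir-155 is positive at 4.41 in the authors' deposited table. If that report holds for this table, a positive value means a higher level in exosomes of obese mice. As exosome preparations are bulk samples, more vesicles of a kind and more miRNA per vesicle cannot be told apart.

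The 4 called rows were close to each other. In the authors' deposited table mir-181b-2 had a log2 fold change of 2.75 (6.73-fold) and mir-181b-1 one of 2.74 (6.69-fold), each with an adjusted p of 0.00142 in limma. For miR-181a the authors' deposited table gave 2.58 (5.99-fold) for mir-181a-2 and 2.57 (5.95-fold) for mir-181a-1, each with an adjusted p of 0.00174 in limma. The largest and smallest of the 4 were 0.18 apart. Standard errors, computed as the deposited fold change divided by t, were 0.44 for each of the 4. The 95% intervals ran from 1.65 to 3.50 for mir-181a-1, from 1.66 to 3.50 for mir-181a-2, from 1.82 to 3.67 for mir-181b-1 and from 1.82 to 3.69 for mir-181b-2, so the lower bounds stand for folds of 3.13, 3.17, 3.52 and 3.52.

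The cluster partners mir-181c and mir-181d had lower fold changes and intervals more than double the width. The authors' deposited table gave mir-181c a log2 fold change of 2.31 (4.96-fold), with p = 0.0397 and an adjusted p of 0.251 in limma. With a standard error of 1.04 its interval ran from 0.12 to 4.50. For mir-181d the authors' deposited table gave 1.86 (3.62-fold), with p = 0.0624 and an adjusted p of 0.303 in limma. With a standard error of 0.93 its interval ran from −0.11 to 3.82, the only one of the 6 that includes 0. The smallest absolute t that was called is 3.53. At these errors it stands for a value of 3.68 for mir-181c and 3.30 for mir-181d, against 1.54 to 1.57 for the 4 called rows. The exact cutoff of the adjustment may lie slightly lower.

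**Figure D1:**
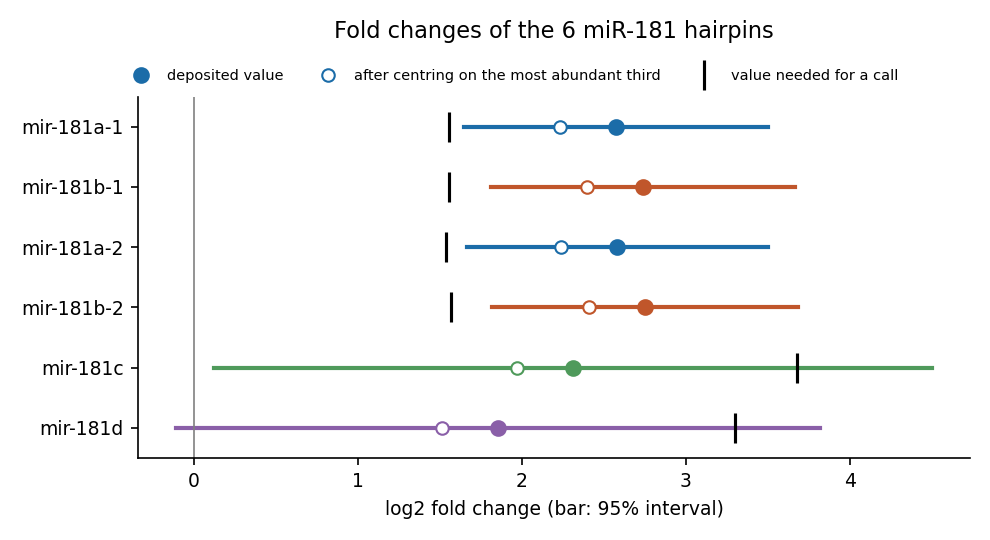
Log2 fold change of each miR-181 hairpin from the authors' deposited table (filled point) with its 95% interval (bar) and the value after centring on the 180 most abundant hairpins (open point). The black tick, labelled as the value needed for a call, is the value at the smallest absolute t that was called at an adjusted p under 0.05. The 4 points for miR-181a and miR-181b lie between 2.57 and 2.75, right of their ticks, and mir-181c at 2.31 and mir-181d at 1.86 lie left of theirs.

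The difference between the called and the uncalled rows was not shown to exceed the error. The table gives no covariance between rows, so an interval of a difference can only be bounded by adding the 2 standard errors. On this widest interval, the log2 fold change of mir-181a-1 less that of mir-181c was 0.26 (−2.85 to 3.38), and that of mir-181b-1 less that of mir-181d was 0.89 (−2.0 to 3.77). Between mir-181b-1 and mir-181a-1 the difference was 0.17 (−1.68 to 2.02). The intervals leave room for equal changes of all 6 hairpins as well as for differences of several-fold.

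In level, the family spanned 9.35 log2 units. Averaged over all libraries, mir-181a-2 stood at 12.66 and mir-181a-1 at 12.64 on the mean log2 expression scale of the authors' deposited table, ranks 19 and 20 of 539. The miR-181b copies were at 9.80 for mir-181b-2 and 9.72 for mir-181b-1 in the authors' deposited table, ranks 71 and 73. At 4.13 for mir-181c and 3.31 for mir-181d in the authors' deposited table, ranks 211 and 232, the chromosome 8 pair was far lower, though still above the median of all hairpins, 2.34. The level was thus not ordered by sequence likeness. The strands of miR-181a-5p and miR-181c-5p are 1 edit apart, yet mir-181a-1 was 8.51 log2 units above mir-181c, and mir-181b-1 was 6.41 above mir-181d, whose 5p strand is 2 edits from its own. Whether these levels were divided by length was not given in the sources used here, and the hairpins range from 72 to 89 bases.

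Within each cluster the row of the a-like hairpin had the higher level. In log2 units of mean expression mir-181a-1 was 2.92 above mir-181b-1, mir-181a-2 was 2.86 above mir-181b-2, and mir-181c was 0.82 above mir-181d. In fold change the a-like hairpin was 0.17 below its neighbour in both the chromosome 1 and the chromosome 2 cluster, and 0.46 above it in the chromosome 8 cluster. All these within-cluster differences of fold change are smaller than the standard error of either row.

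The fold changes of the miR-181a and miR-181b rows were among the most precise in the table. As the family was chosen on fold changes and adjusted p-values of this comparison, small standard errors partly follow from the choice. Each pair of copies shares its 5p strand and is also read here as in effect 1 measurement, as the assignment of reads was not given. Counted from the smallest standard error, mir-181a-2, mir-181b-1, mir-181a-1 and mir-181b-2 ranked 3, 5, 6 and 8 of 539, while mir-181d and mir-181c ranked 231 and 310. The median standard error was 0.97 over all hairpins and 0.76 over the 180 most abundant. Among the 49 other hairpins within 1 log2 unit of the level of mir-181b-1, none had a smaller standard error, and their median was 0.71. For mir-181c, 32 of 55 hairpins of like level had a smaller one. Without values per library, it was not tested whether the small errors of the 4 rows reflect even levels across the mice.

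**Figure D2:**
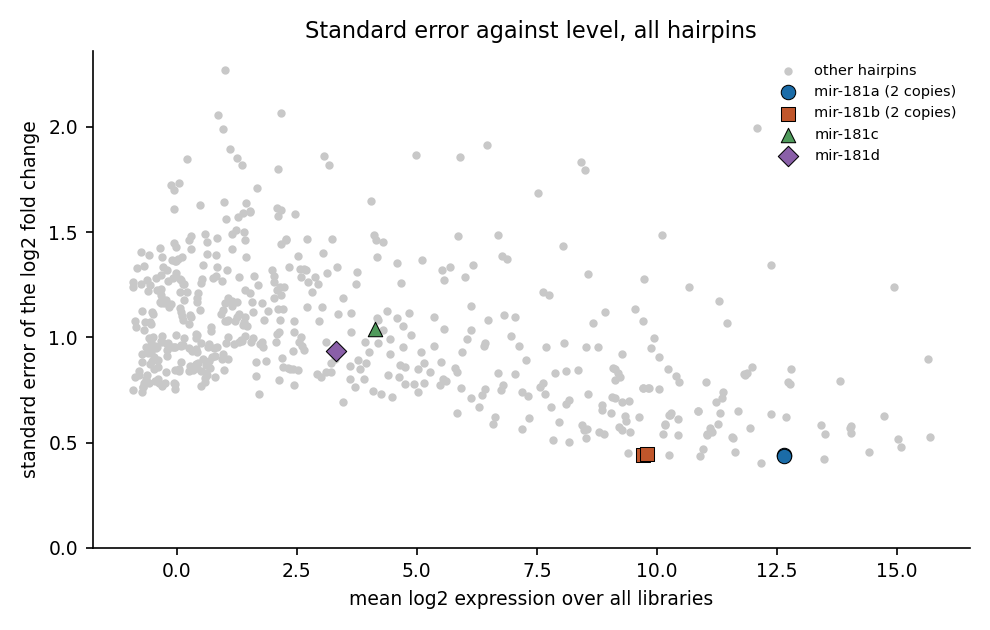
Standard error of the log2 fold change against mean log2 expression for all 539 hairpins, with the miR-181 rows marked by shape and colour. The miR-181a and miR-181b copies lie at the lower edge at 0.44, and mir-181c (1.04) and mir-181d (0.93) lie within the cloud of low-level hairpins.

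Set beside hairpins of the same level, the 4 called rows were near the top in fold change. The family was chosen on these fold changes, so this standing follows from the choice and is only a description. The copies of one miRNA are not separate showings of it. By the authors' deposited table, 1 of the 17 other hairpins within 1 log2 unit of the level of mir-181a-1 had a higher fold change, and none of the 49 around mir-181b-1 or the 47 around mir-181b-2. The medians of these hairpins were 0.86 around mir-181a-1 and 0.40 around both miR-181b copies. Around mir-181c and mir-181d, 2 of 55 and 10 of 67 were higher, against medians of −0.21. Of the 176 other hairpins among the 180 most abundant, 3 were above the lowest called miR-181 row in the authors' deposited table. They are mir-155 at 4.41, the NF-κB feedback regulator mir-146b at 2.72 and the hypoxia-induced mir-210 at 2.64. Here mir-146b was named after its values were seen.

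**Figure D3:**
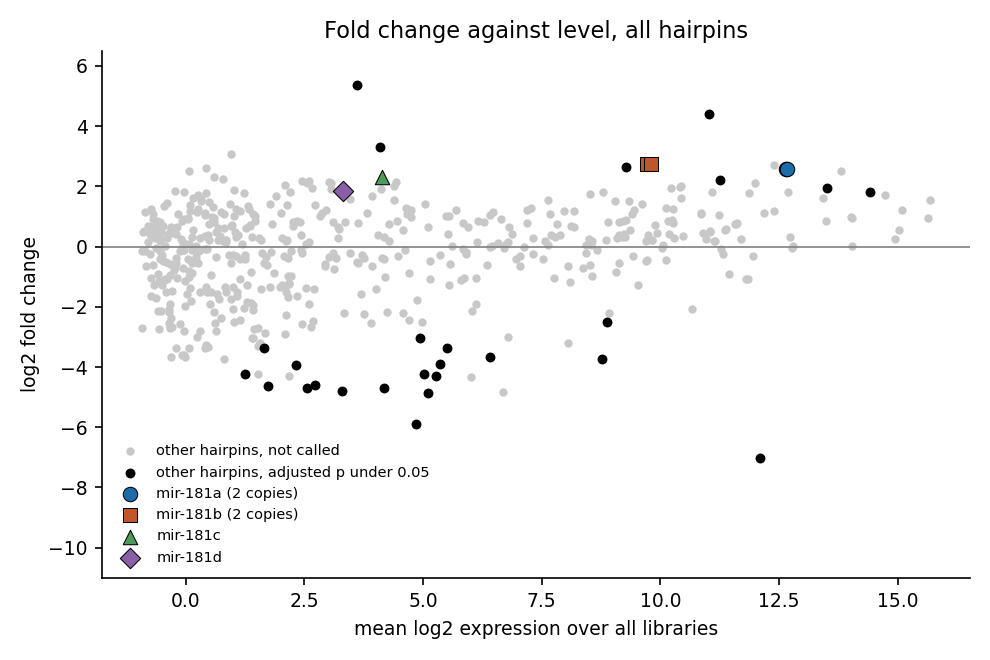
Log2 fold change against mean log2 expression for all 539 hairpins in the authors' deposited table, with the miR-181 rows marked by shape and colour and other called hairpins in black. The miR-181a and miR-181b copies lie near the upper edge at high level, below mir-155 at 4.41, and mir-181c and mir-181d lie above 0 at low level among hairpins of both signs.

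The hairpins nearest to the median miR-181 row, in both fold change (2.58) and level (9.76), were found as the 5 smallest distances in log2 units. The nearest, at 0.49, was mir-210, with a log2 fold change of 2.64 and an adjusted p of 0.00704 in limma in the authors' deposited table. It was followed by mir-92a-2 (0.80), mir-29a (0.89), mir-148b (0.89) and mir-339 (1.15), with log2 fold changes of 1.93, 2.0, 1.96 and 1.51 in the authors' deposited table. None of these 4 was called, with adjusted p-values from 0.0614 to 0.240 in limma. This likeness rests on 1 comparison and its mean level.

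The closeness of the miR-181 copies was compared with that of other miRNAs present as several hairpins. The table holds 60 hairpins of 29 such miRNAs, and the median difference in log2 fold change between copies was 0.12, or 0.056 over the 21 whose copies averaged a mean log2 expression of at least 3.32. At 0.0097 for miR-181a and 0.010 for miR-181b, the miR-181 pairs ranked 3 and 4 from the smallest. Only the copies of mir-16 (0.0021), a regulator of the cell cycle, and of let-7a (0.0034), a regulator of growth, were closer. In mean log2 expression the copies differed by 0.017 for miR-181a and 0.084 for miR-181b, against a median of 0.15. Their standard errors differed by 0.0044 and 0.0046.

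Sharing a mature strand did not always go with equal values. Of the 28 miRNAs whose copies all have sequences in RefSeq, 27 share at least 1 mature sequence between copies. The exception is let-7a, with 3 mature sequences in RefSeq and 0 shared. These are too few for both arms of both copies, so whether its copies share a strand cannot be read from them. The largest differences were those of mir-365, mir-29b and mir-194, which each share 1. In the authors' deposited table mir-365-2 was at −3.75 and mir-365-1 at 0.98, mir-29b-1 at −3.66 and mir-29b-2 at −0.54, and mir-194-2 at −1.08 and mir-194-1 at 1.11. The copies of these 3 also differed in level, by 4.03, 2.78 and 1.32 log2 units. Large differences in level did not always go with such differences in fold change. The copies of mir-219a were 4.58 apart in level and 0.91 in fold change, and those of mir-92a 3.58 and 0.59. All copies were called for 3 of the 29 miRNAs, miR-181a, miR-181b and mir-692. The assignment of reads that match several hairpins was not given in the sources used here, so each miR-181 pair is read as in effect 1 measurement, and the 4 called rows as 2.

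**Figure D4:**
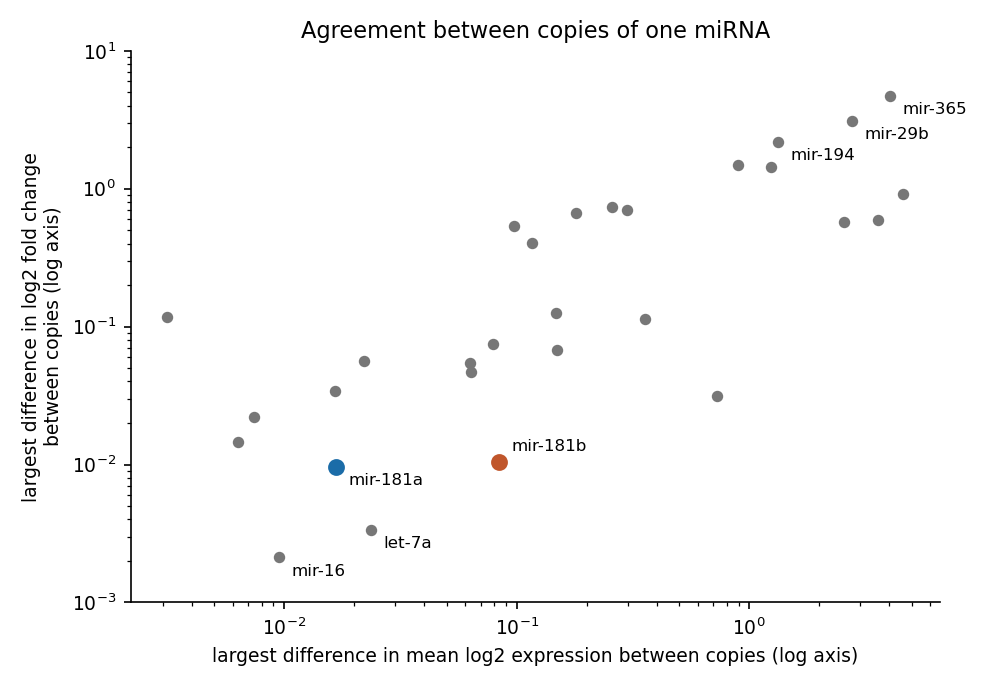
For each of 29 miRNAs with several hairpins in the table, the largest difference between its copies in log2 fold change against that in mean log2 expression, both on log axes. The miR-181a and miR-181b pairs lie near the bottom at about 0.01, with mir-16 and let-7a below them and mir-194, mir-29b and mir-365 at the top right.

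The chromosome 8 pair has miRNA neighbours within 50 kb in the table, whereas the other 2 clusters have none. The mir-23a cluster, which is known for roles in myeloid differentiation and lies on the other strand, begins 29556 bases from mir-181c. In the authors' deposited table its hairpins mir-23a, mir-27a and mir-24-2 had log2 fold changes of 0.24, 1.80 and 0.32, with adjusted p-values of 0.890, 0.0740 and 0.912 in limma. Opposite mir-24-2, the hairpin mir-3074-2 was at 0.40 in the authors' deposited table (adjusted p = 0.893 in limma). Their levels of 9.18 to 11.10 in mean log2 expression were all far above those of mir-181c and mir-181d. The neighbours thus had smaller fold changes than the miR-181 pair beside them, mir-27a by a narrow margin, though this difference was not tested.

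Other miRNAs of lymphocytes and blood cells were described from a list of 17 hairpins, of which 16 were in the table. Of these, 12 had positive fold changes, against 52.7% of all 539 hairpins. On the positive side 2 were called and on the negative side none, against 2.04% and 3.53% of all hairpins. The median log2 fold change of the list was 0.61 in the authors' deposited table, against 0.09 over all hairpins and 0.34 over the 180 most abundant. Abundance differed too, as the listed hairpins had a median level of 10.20 and all hairpins one of 2.34. Whether the list differs from hairpins of like level was not tested. The copies of mir-125b and of mir-92a, and mir-142a and mir-142b of one locus, were counted as separate hairpins. The called hairpins were mir-155, induced in activated macrophages and lymphocytes, at 4.41 (adjusted p = 0.00205 in limma) and mir-222, known to target the growth factor receptor Kit, at 1.82 (adjusted p = 0.0240 in limma) in the authors' deposited table. After 0.34, the median among the 180 most abundant hairpins, was subtracted from all values, only 1 of the list was called.

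Not called on the positive side were mir-92a-1 of the growth-promoting mir-17 cluster, at 2.52, and mir-146a, a brake on Toll-like receptor signalling, at 2.11 in the authors' deposited table (adjusted p = 0.0717 and 0.183 in limma). Lower values in the authors' deposited table were those of mir-221 (1.72), the granulocyte and monocyte miRNA mir-223 (1.54), mir-29c (0.64) and the mature lymphocyte miRNA mir-150 (0.59). The authors' deposited table put the cell-cycle promoting mir-17 at 0.05, mir-342 at −0.26, mir-20a at −0.32 and the pan-leukocyte mir-142a at −0.46, and after the same centring mir-17 was also below 0. The interval of mir-150, from −2.49 to 3.67, covers the values of all 6 miR-181 rows.

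**Figure D5:**
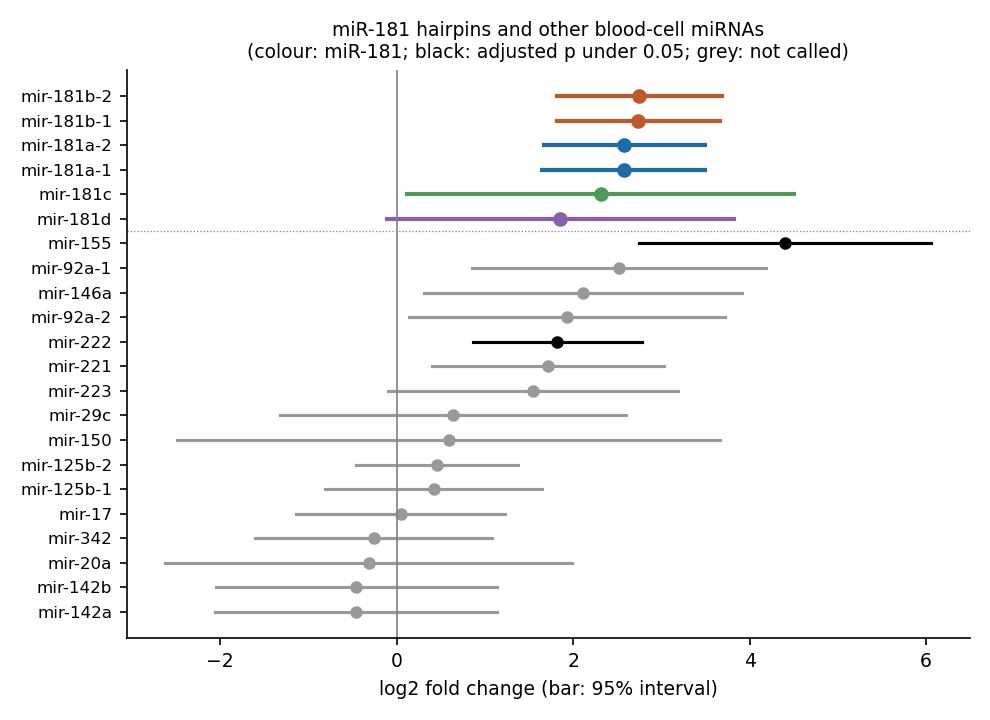
Log2 fold change with 95% interval for the 6 miR-181 hairpins (coloured, above the dotted line) and 16 other hairpins of lymphocytes and blood cells (black where adjusted p is under 0.05, grey otherwise), from the authors' deposited table. The 6 miR-181 points lie between 1.86 and 2.75, and the others run from −0.46 for mir-142a to 4.41 for mir-155.

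Markers of cells other than macrophages were set beside the family, as miR-181 is also a lymphocyte miRNA. The hairpins listed as myeloid, mir-22, mir-155, mir-142a, mir-223 and mir-511, were all present, at mean log2 expressions of 15.02, 11.02, 9.70, 7.62 and 4.17 in the authors' deposited table. At least mir-22, mir-155 and mir-142a are not restricted to myeloid cells, so their levels do not tell myeloid cells from lymphocytes. The hairpins of this myeloid list had fold changes of both signs. The mannose receptor locus miRNA mir-511 was called on the negative side, at −4.70 (adjusted p = 0.0148 in limma), and mir-155 on the positive side, at 4.41, in the authors' deposited table. The authors' deposited table has −0.46 for mir-142a, 0.54 for mir-22 and 1.54 for mir-223, none of them called. The lymphocyte marker mir-150 was at 3.24 in the authors' deposited table, rank 234, and 9.40 log2 units below mir-181a-1. No other hairpin was listed as a lymphocyte marker. In the wider list of lymphocyte and blood-cell hairpins, levels ran from 3.24 for mir-150 to 14.73, with a median of 10.20. The share of lymphocytes cannot be read from the level of mir-150. Of the 3 erythrocyte hairpins, at levels of 4.15 to 11.81, and the endothelial mir-126a, at 6.46, none was called. Of 3 adipocyte hairpins mir-365-2 was called, on the negative side at −3.75 in the authors' deposited table. Its copy mir-365-1, at 0.98, and mir-193b, at −0.56, were not called. Of 3 epithelial hairpins none was called, at fold changes of 0.82 to 2.17 and levels of 2.45 to 3.10 in the authors' deposited table. Neither the striated muscle hairpin mir-133a-1 nor the liver hairpin mir-122, both at levels under 2.3, was called. The part of other cell types in the miR-181 values was not tested.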

How the data were processed

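Small RNA was sequenced from 14 exosome preparations. Trimmomatic 0.30, Novoalign, limma, edgeR, FastQC and MultiQC were used per the submitters' processing notes, with no roles given. The 1 table used holds 0 columns of values per library. Log2 fold changes and mean log2 expression were taken from the authors' deposited table, with a scaling not given in the sources used here. As deposited, t is a score, the moderated t of limma. The deposited p-values are unadjusted and, over all 539 hairpins, Benjamini-Hochberg adjusted. The deposited B, a natural log of odds, was not used. No model was fitted here: calls are the authors' limma tests at an adjusted p under 0.05, and with no sign of separate animals in the labels, p-values measure only the spread between libraries. Depth per library is unknown.

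From t and p, 17.9 degrees of freedom were recovered in every row whose p was neither very small nor large. The miR-181a and miR-181b rows, with very small p, were not among them. That value was used for the 95% intervals of all rows, and standard errors are fold change divided by t. This step and the adjustment were tested on simulated data, with p computed from the same t distribution that the step inverts. That test does not show whether 17.9 suits the miR-181a and miR-181b rows. Named hairpins are the 6 members, hairpins with the same seed or within 50 kb, the 5 nearest in fold change and level, the 3 miRNAs with the most and the 3 with the least alike copies, and the listed blood-cell and marker hairpins. The members and lists were chosen with earlier results of these data known. For sequences, 501 of 539 hairpins were matched to RefSeq (GRCm38.p6) by symbol or synonym. Alternatives covered a minimum level, centring, the adjustment, copies and the threshold. Python 3.11.15, pandas 2.3.3 and scipy 1.17.1 were used.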

Additional observations from a re-analysis of the deposited data

How the results depend on the processing

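The 4 miR-181a and miR-181b rows were called under each setting in which they were tested. Those settings were a minimum mean log2 expression of 3.32, centring by 0.34 (the 180 most abundant hairpins) or 0.09 (all hairpins), Bonferroni or Benjamini-Yekutieli adjustment, an adjusted p under 0.1 and a 2-fold minimum. With 1 hairpin per miRNA, 2 of the 4 rows left were called, since the copies merge. Log2 fold changes ranged from 2.23 to 2.57 for mir-181a-1, 2.24 to 2.58 for mir-181a-2, 2.40 to 2.74 for mir-181b-1 and 2.41 to 2.75 for mir-181b-2, with adjusted p-values of at most 0.0119. Those of mir-181c ranged from 1.97 to 2.31 (adjusted p at least 0.174) and those of mir-181d from 1.52 to 1.86 (at least 0.302), neither called. At 3.31, mir-181d fell just under the minimum level and was not tested there. Over all hairpins the split of 11 positive and 19 negative calls became 8 and 25 after centring by 0.34, 16 and 16 above the minimum level, 19 and 26 at an adjusted p under 0.1 and 6 and 5 with Bonferroni adjustment.

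The alternatives for the blood-cell list and for the copies were chosen after seeing the data. The list's 2 calls fell to 1 with centring by 0.34, with Bonferroni and with Benjamini-Yekutieli adjustment, rose to 3 above the minimum level and at an adjusted p under 0.1, and stayed at 2 under the other settings. The cause was not tested. The median difference between copies fell to 0.056 among miRNAs above the minimum level. No paired analysis was possible because values of single libraries were not analysed here, and no library could be left out for the same reason.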

Other observations

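Hairpins annotated on opposite strands of one locus in RefSeq form 10 pairs in the table, none with a miR-181 hairpin. In the authors' deposited table mir-142a and mir-142b, at log2 fold changes of −0.46 and −0.46, had mean log2 expressions of 9.70 and 9.71. Likewise mir-451a and mir-451b were at 0.09 and 0.15 in fold change and at 6.76 and 6.79 in level, and mir-24-1 and mir-3074-1 at 0.38 and 0.28 in fold change and at 9.12 and 9.09 in level, in the authors' deposited table. The pair mir-219a-1 and mir-219c stood apart, at −0.63 and 0.92 in fold change and at 3.94 and 0.05 in level in the authors' deposited table. These pairs were picked after their values were seen. Whether reads were assigned by strand was not given in the sources used here. Those miR-181 hairpins that have an annotated transcript on the other strand are mir-181a-1 and mir-181b-1, opposite an intron of Gm26936, and mir-181a-2 with mir-181b-2, opposite Nr6a1. For these 4 rows, reads from that strand cannot be told apart from miR-181 reads if strand was not used.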
